A study of Mus musculus with 12 samples.

Results

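Basophils and mast cells store histamine and proteases in granules and release them when IgE bound to their surface receptor meets its antigen. Both arise in the bone marrow from progenitors that also give rise to granulocytes or to megakaryocytes and erythroid cells, and GATA2 and C/EBPα are among the factors that set their identity. The 7 genes described here were listed by name as genes of these cells, with earlier results of these data known, and are 7 of the 27998 genes in each count table. Cpa3 (carboxypeptidase A3), Prss34 (mast cell protease 11) and Mcpt8 (mast cell protease 8, a basophil protease in mice) encode granule proteases, Ms4a2 and Fcer1a encode the β and α chains of the high-affinity IgE receptor, Hdc encodes histidine decarboxylase, which makes histamine, and Cyp11a1 encodes the enzyme that cleaves the side chain of cholesterol, the first step of steroid synthesis.

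The study followed leukemia development in C57BL/6 mice with RNA sequencing of single cells (3′ libraries made with the 10x Genomics kit) in marrow cells enriched magnetically for c-Kit, the receptor of stem cell factor. The labels name femurs and tibias as the source, and the study's methods for the enrichment also name vertebrae and pelvic bones. There were 4 genotypes with 3 libraries each, 1 at each time point: WT (no Mx1-Cre), E2-KO (Mx1-Cre+ with both Ezh2 alleles floxed), G12D (Mx1-Cre+ with 1 NRas G12D allele) and G12D/E2-KO (Mx1-Cre+ with both changes). All mice, WT included, received 5 injections of pIpC, at 8 to 12 weeks of age by the labels (the study's text gives a younger age), and marrow was taken 2 weeks (T1), 2 months (T2) or 4 months (T3) later. EZH2 is the enzyme that methylates histone H3 at lysine 27, and Mx1-Cre is switched on by the interferon response to pIpC in blood-forming cells and in some other tissues. As each genotype had 1 library per time point, the time points stood as its replicates, and p-values measure the spread between these libraries.

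The tables held 35597 cells, and 2896 of those in G12D T1 were also in G12D/E2-KO T1 and were counted once, in G12D/E2-KO T1, which left 32701 cells. The labels do not say to which library they belong, and G12D/E2-KO T1 has 3044 cells in all, 2896 of them shared, so that its values rest on that choice. A library had 12636998 to 23646292 UMIs (unique molecular identifiers, each standing for 1 captured RNA molecule), and the median cell had 3780.5 UMIs (E2-KO T3) to 6975.5 UMIs (WT T2). Ezh2 was at 103 to 133 CPM (counts per 1000000, the UMIs of a gene for each 1000000 UMIs of the library) in WT and at 27.7 to 34.6 CPM in E2-KO, and at 81.7 to 103 CPM in G12D and 20.7 to 25.3 CPM in G12D/E2-KO. Its T1 library, made up mostly of the shared cells, was at 20.7 CPM, so that these cells as a set had Ezh2 as low as the other libraries with floxed Ezh2. Kit was at 43.6 to 60.4 CPM in every library except G12D/E2-KO T2 (80.8) and T3 (79.0). Xist was at 1296 to 1357 CPM in WT, E2-KO and G12D T3 and under 1 CPM in the other 9 libraries, G12D/E2-KO T3 among them. High Xist was therefore seen only at T3, in 3 of its 4 libraries, and T3 and the Xist level can largely not be told apart. Ddx3y, a gene of the Y chromosome, was at 0.356 to 0.615 CPM in those 3 libraries and at 29.4 to 59.5 CPM in the other 9, as between female and male mice. At T3, G12D/E2-KO therefore differed from the other 3 genotypes in these genes as well.

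All 7 genes are protein-coding and lie on 7 chromosomes (GENCODE coordinates, GRCm38). Cpa3 lies on chromosome 3 (20215620 to 20242181, minus strand), Prss34 on chromosome 17 (25298394 to 25300165, plus strand), Mcpt8 on chromosome 14 (56082166 to 56085273, minus strand), Ms4a2 on chromosome 19 (11615523 to 11623719, minus strand), Fcer1a on chromosome 1 (173221284 to 173227214, minus strand), Hdc on chromosome 2 (126593667 to 126619299, minus strand) and Cyp11a1 on chromosome 9 (58006411 to 58027023, plus strand). The genes are therefore not neighbours.

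GATA factors bind short sequences with the core GATA, and Gata2 was detected in 80.9% of the basophil-like cells described further on. The words AGATAA and AGATAG, and likewise TGATAA with TGATAG, were searched on both strands in the 250 bases before each RefSeq start of the genes. At least 1 of them was present in 6 of the 8 promoters of the 7 genes (Cyp11a1 has 2 RefSeq starts, of which 1 had a word, and Mcpt8 had none) and in 26.5% of the 32851 promoters of the same length. The promoters of Cpa3, Prss34 and both IgE receptor chain genes are shown, 5′ to 3′ on the strand of the gene, because they hold a word and lie wholly outside the annotated gene. Capitals mark the words, which read TTATCT where they lie on the opposite strand (RefSeq starts, GRCm38.p6). The windows are chr3:20242182-20242431 (minus strand) for Cpa3, chr17:25298144-25298393 (plus strand) for Prss34, chr19:11623720-11623969 (minus strand) for Ms4a2 and chr1:173227230-173227479 (minus strand) for Fcer1a.
Cpa3: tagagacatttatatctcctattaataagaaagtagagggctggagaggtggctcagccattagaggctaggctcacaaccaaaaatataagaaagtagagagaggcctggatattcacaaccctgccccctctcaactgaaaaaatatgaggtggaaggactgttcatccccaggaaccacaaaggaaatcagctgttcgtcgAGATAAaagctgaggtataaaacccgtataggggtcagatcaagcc
Prss34: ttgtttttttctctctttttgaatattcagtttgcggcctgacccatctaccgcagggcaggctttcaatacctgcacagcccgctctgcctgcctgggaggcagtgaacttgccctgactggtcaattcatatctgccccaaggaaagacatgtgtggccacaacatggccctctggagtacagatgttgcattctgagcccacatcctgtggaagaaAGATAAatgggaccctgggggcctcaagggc
Ms4a2: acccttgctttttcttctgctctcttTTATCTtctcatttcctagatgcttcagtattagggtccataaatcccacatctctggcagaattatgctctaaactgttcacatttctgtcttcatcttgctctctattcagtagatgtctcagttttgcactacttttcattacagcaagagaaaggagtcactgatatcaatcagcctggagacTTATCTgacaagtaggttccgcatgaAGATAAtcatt
Fcer1a: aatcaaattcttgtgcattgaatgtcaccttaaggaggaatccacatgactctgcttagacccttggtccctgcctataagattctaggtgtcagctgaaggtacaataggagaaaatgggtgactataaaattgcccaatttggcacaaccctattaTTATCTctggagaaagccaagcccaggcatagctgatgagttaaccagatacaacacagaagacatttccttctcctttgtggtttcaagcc
The word lay 46 to 41 bases before the start in Cpa3 and 31 to 26 bases before it in Prss34. Ms4a2 had 3 of them, the nearest 11 to 6 bases before the start, and Fcer1a had 1 at 92 to 87 bases. Of the other words searched, TGTGGT (the RUNX word, in 14% of all promoters) was found for Cpa3, Mcpt8 and Fcer1a, and TTGCNNAA (the C/EBP word, in 9.56%) for Fcer1a and Cyp11a1. The E-box words CACGTG and CATGTG (17.6%) were found for Prss34, Fcer1a and Cyp11a1, TATAAA (12.4%) for Cpa3 and Fcer1a, and the STAT word TTCNNNGAA (7.02%) for none. These matches are a description of the sequence, and binding was not measured.

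Over all cells, the 7 genes gave 26840 UMIs, of which Mcpt8 gave 8529, Hdc 6566, Prss34 4461, Cpa3 4130, Ms4a2 2026, Fcer1a 949 and Cyp11a1 179. The granule proteases Mcpt8 and Prss34 had their highest values at T1 in every genotype (in WT mostly from 1 cell), the IgE receptor genes were lowest in WT on average, and Cyp11a1 was highest in G12D. Hdc was the most widely detected, in 4901 cells, against 154 cells for Cyp11a1. These sums run over all cells of a library, so that fewer cells of a type and less RNA per cell cannot be told apart in them.

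Among the granule proteases, Cpa3 was at 14.7, 14.3 and 9.12 CPM in WT at T1, T2 and T3, at 17.1, 13.8 and 9.73 in E2-KO, at 24.1, 14.7 and 18.2 in G12D, and at 20.3, 22.9 and 45.6 in G12D/E2-KO. All 3 G12D/E2-KO libraries lay above the 3 WT and the 3 E2-KO libraries, and T3 stood above every other library. Group means (± SD, n = 3) were 12.7 ± 3.11 for WT, 13.5 ± 3.67 for E2-KO, 19.0 ± 4.75 for G12D and 29.6 ± 13.9 for G12D/E2-KO.

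Mcpt8 was at 45.6, 19.5 and 9.12 CPM in WT, at 60.9, 17.8 and 19.8 in E2-KO, at 72.8, 29.7 and 51.9 in G12D, and at 59.1, 36.4 and 33.1 in G12D/E2-KO. Prss34 was at 30.1, 9.05 and 1.84 CPM in WT, at 37.6, 4.22 and 13.8 in E2-KO, at 45.8, 13.9 and 17.8 in G12D, and at 38.5, 18.5 and 4.99 in G12D/E2-KO. The 4 libraries of T1 were the highest 4 of the 12 for Prss34, and for Mcpt8 T1 was the highest time point within each genotype. In WT T1 a single cell held 335 of the 506 Prss34 UMIs and 448 of the 767 Mcpt8 UMIs. Without it the levels there were 10.2 and 19.0 CPM, the latter no higher than the 19.5 CPM of WT T2 with all its cells. With the cell richest in UMIs of the 7 genes left out of each library (an alternative added after seeing the data), T1 was still the highest time point in 4 of 4 genotypes for both genes, and 3 of the 4 T1 libraries were among the highest 4 for Prss34. The genotypes overlapped, since the spread over time within each genotype was as large as the differences between them. The means of Mcpt8 were 24.7 ± 18.8, 32.8 ± 24.3, 51.5 ± 21.5 and 42.8 ± 14.1 CPM with WT first and then E2-KO, G12D and the double mutant, and those of Prss34 were 13.7 ± 14.7, 18.6 ± 17.2, 25.8 ± 17.4 and 20.7 ± 16.9 CPM.

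For the IgE receptor, Ms4a2 was at 6.12, 6.43 and 3.28 CPM in WT, at 8.58, 4.45 and 9.02 in E2-KO, at 8.16, 3.02 and 11.7 in G12D, and at 15.6, 12.0 and 22.9 in G12D/E2-KO. Each of the 3 G12D/E2-KO libraries was higher than all 9 others, with a mean of 16.8 ± 5.55 CPM against 5.28 ± 1.74 CPM in WT. Fcer1a was at 0.238, 1.27 and 2.66 CPM in WT, at 6.37, 2.27 and 5.78 in E2-KO, at 4.36, 2.96 and 8.01 in G12D, and at 4.62, 1.94 and 13.5 in G12D/E2-KO. Its lowest value, in WT T1, came from 4 UMIs in 1 cell, and all 3 G12D libraries lay above the 3 WT libraries. The α chain was thus higher on average in all 3 mutants than in WT (4.81 ± 2.22, 5.11 ± 2.61 and 6.68 ± 6.04 CPM in E2-KO, G12D and G12D/E2-KO against 1.39 ± 1.22 CPM), while the β chain stood out in G12D/E2-KO.

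Hdc was at 20.9, 31.3 and 29.0 CPM in WT, at 23.6, 20.7 and 17.6 in E2-KO, at 38.5, 28.3 and 38.5 in G12D, and at 39.3, 28.9 and 30.6 in G12D/E2-KO. It varied least of the 7 genes, from 17.6 to 39.3 CPM over the 12 libraries. Cyp11a1 was at 0.535, 0.211 and 0.256 CPM in WT, at 0.369, 0.464 and 0.554 in E2-KO, at 2.38, 0.797 and 1.96 in G12D, and at 1.21, 0.592 and 0.259 in G12D/E2-KO. These levels rest on 4 to 47 UMIs a library, and all 3 G12D libraries lay above the 3 WT and the 3 E2-KO libraries. The plot of CPM by library shows the 12 values of each gene.

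**Figure D1:**
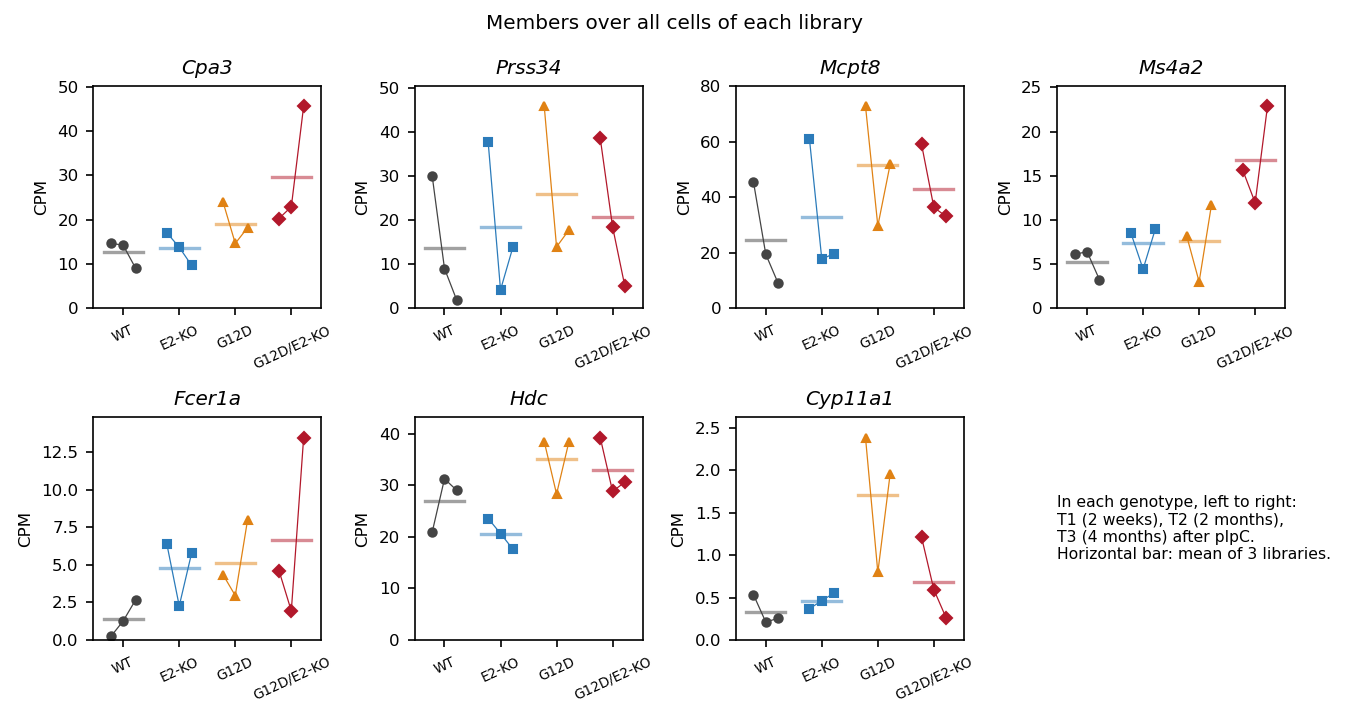
CPM of each gene over all cells (y axis, linear, from 0) in the 4 genotypes, with 1 point per library at T1, T2 and T3 from left to right, joined by a line, and a horizontal bar at the mean of 3 libraries. Mcpt8 and Prss34 are highest at T1 in each genotype, Ms4a2 is highest in G12D/E2-KO (12.0 to 22.9 CPM), and Cyp11a1 is highest in G12D (0.797 to 2.38 CPM).

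None of these differences between genotypes passed the main test, edgeR's quasi-likelihood test on UMI sums with genotype and time point as terms (threshold: adjusted p of 0.05 over all 12848 genes tested, Benjamini-Hochberg). In G12D/E2-KO against WT, 0 of the 7 genes were called, against 5.69% of all genes. The unadjusted p was under 0.05 for 4 of the 7 and for 3362 of the 12848 genes. The nearest were Cpa3, with a log2 change of 1.14 (SE 0.30, adjusted p = 0.0523), Ms4a2 with 1.49 (SE 0.40, adjusted p = 0.0580) and Fcer1a with 1.94 (SE 0.54, adjusted p = 0.0631). Mcpt8 had 0.92 (SE 0.31, adjusted p = 0.102), Cyp11a1 1.05, Prss34 0.80 and Hdc 0.21. DESeq2 on the same sums called 4 of the 7 in this comparison (Ms4a2, adjusted p = 0.00239; Cpa3 and Fcer1a, adjusted p = 0.00264; Mcpt8, adjusted p = 0.0204) and 10.2% of all genes. The value of Cpa3 rests in part on 1 library, since its log2 change was 0.68 without G12D/E2-KO T3, and 0.69 with the Xist level as a covariate. Without G12D/E2-KO T1, the library with the shared cells, the log2 change of Cpa3 was 1.43 (adjusted p = 0.0246) and that of Ms4a2 1.55 (adjusted p = 0.0824).

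In G12D against WT, 0 of 7 were called, against 0.109% of all genes. The unadjusted p was under 0.05 for 3 of the 7 and for 1522 of the 12848 genes. Cyp11a1 had the largest log2 change of the 7 genes, 2.39 (SE 0.53, adjusted p = 0.179), followed by Fcer1a with 1.87 (SE 0.54, adjusted p = 0.292), Prss34 with 1.31 (SE 0.70, adjusted p = 0.5) and Mcpt8 with 1.27 (SE 0.32, adjusted p = 0.237). Cpa3, Ms4a2 and Hdc differed by 0.61, 0.39 and 0.38. DESeq2 called Mcpt8 (adjusted p = 0.00264), Fcer1a (0.0186) and Cyp11a1 (0.0305) in this comparison, with 1.11% of all genes called.

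In E2-KO against WT, 0 of 7 were called, against 1.59% of all genes. The unadjusted p was under 0.05 for 1 of the 7 and for 2066 of the 12848 genes. Fcer1a had a log2 change of 1.79 (SE 0.55, adjusted p = 0.156, and 0.0114 with DESeq2, which called no other member and 3.53% of all genes), and Hdc was the only member below WT, at -0.44 (SE 0.23, adjusted p = 0.375). The other 5 differed by 0.07 (Cpa3) to 0.64 (Prss34).

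The median log2 change over the 7 genes was 0.39 for E2-KO, 1.27 for G12D and 1.05 for G12D/E2-KO, where the median of all genes tested was 0.0043, -0.0089 and 0.012. The 3 comparisons share the WT libraries. The test of the interaction, which asks whether the double mutant differs from the sum of both single changes, called 0 of 7 and 0.0934% of all genes. The unadjusted p was under 0.05 for 2 of the 7 and for 461 of the 12848 genes. Cyp11a1 had -1.89 (SE 0.78) and Fcer1a -1.72 (SE 0.73), both with an adjusted p of 1. The interaction was above 0 for 3 of the 7 genes, up to 0.77 (Ms4a2), and below 0 for 4. DESeq2 called 0 of 7 and 0.451% of all genes in the interaction.

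G12D/E2-KO was also compared with each single mutant. The unadjusted edgeR p was under 0.05 for 2452 of the 12848 genes against E2-KO and for 1906 against G12D. Against E2-KO, where edgeR called 0 of 7 (3 under an unadjusted p of 0.05) and 0.0934% of all genes, Ms4a2 was higher by 1.16 (SE 0.39, adjusted p = 0.163) and Cpa3 by 1.07 (SE 0.30, adjusted p = 0.115), and DESeq2 called both (adjusted p = 0.0349 and 0.00938), with 5.4% of all genes called. Against G12D, with 0 of 7 called by either tool (2 under an unadjusted p of 0.05 with edgeR) and 1.36% (edgeR) or 2.77% (DESeq2) of all genes called, Ms4a2 was higher by 1.1 (SE 0.39, adjusted p = 0.243) and Cyp11a1 was lower, at -1.35 (SE 0.49, adjusted p = 0.239).

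**Figure D2:**
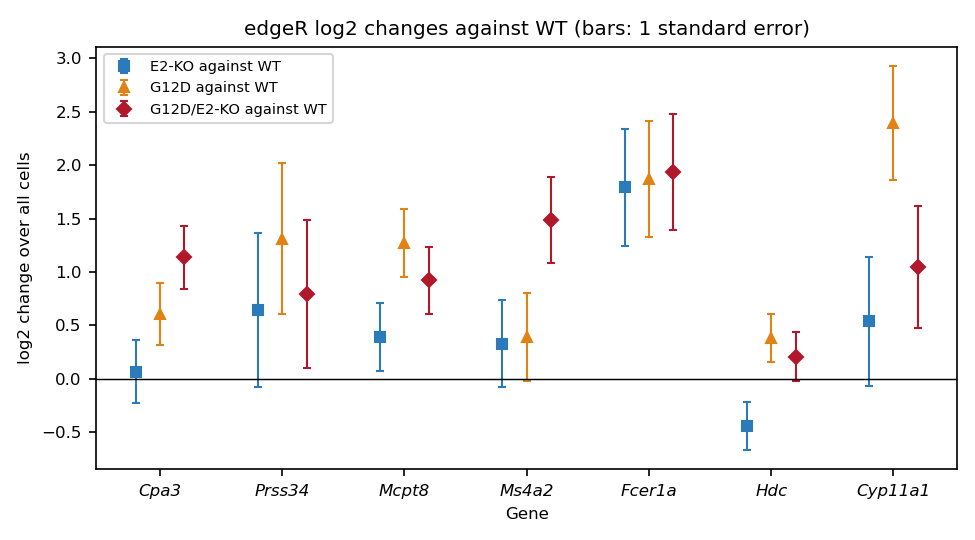
Log2 change of each gene against WT over all cells (y axis) from edgeR, with bars of 1 standard error, for E2-KO (squares), G12D (triangles) and G12D/E2-KO (diamonds). Fcer1a lies between 1.79 and 1.94 in all 3 mutants, Cyp11a1 is highest in G12D (2.39), and Hdc is below 0 in E2-KO only (-0.44).

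Across time, Mcpt8 and Prss34 were lower at T2 and T3 than at T1. At T3 against T1, the log2 change of Mcpt8 was -1.29 (SE 0.27, adjusted p = 0.365) and that of Prss34 was -2.17 (SE 0.62, adjusted p = 0.365), while that of Fcer1a was 1.0 (SE 0.43, adjusted p = 0.379). With the Xist level as a covariate, T3 differed from T1 by -1.37 for Mcpt8 (adjusted p = 0.210) and by -3.59 for Prss34 (adjusted p = 0.174). At T2 against T1 the values were -1.27 for Mcpt8, -1.79 for Prss34 and -0.70 for Fcer1a. With edgeR, 0 of 7 were called at either time, with 3 under an unadjusted p of 0.05 each time, and 0% of all genes were called. Of the 12848 genes, 599 at T2 and 1677 at T3 had an unadjusted p under 0.05. DESeq2 called Mcpt8 at T2 (adjusted p = 0.00187) and T3 (adjusted p = 0.000687), with 0.0467% and 0.14% of all genes called. In all cells the summed level of 6 eosinophil markers (Prg2, Prg3, Epx, Ear1, Ear2 and Ear6) also had its highest mean at T1, going from 69.0 ± 54.8 CPM (SD, n = 4) at T1 to 29.6 ± 12.7 at T2 and 22.9 ± 15.7 at T3, and its part in the result was not tested. The mean at T1 came mostly from G12D (138.5 CPM) and E2-KO (86.7 CPM), and in WT the markers were at 20.9 CPM at T1 and 44.7 CPM at T2, where Mcpt8 and Prss34 were lower.

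The cells that carried the UMIs were found by clustering the WT cells without the 7 genes and by giving each mutant cell the class of its nearest WT cell. A class that held 304 of the 32701 cells is called baso/mast-like here, since 13 of its 20 listed markers were raised. The most widely detected were Lmo4 (in 93.8% of its cells), Csrp3 (86.8%), Gata2 (80.9%), Ifitm1 (76.6%) and Ikzf2 (76.3%). Other listed markers were rare in it, such as Cd200r3 (12.5%), Gzmb (9.54%), Il18r1 (1.97%), Il4 and Grm6 (1.64% each) and Ccl3 (1.32%). Csrp3, Gata2 and Ifitm1 were also among the 10 leading genes of an unnamed cluster of 701 cells, led by Csrp3, Apoe and Clec4d. The mast cell tryptase genes Tpsb2 and Tpsab1 and the mast cell chymase gene Mcpt4 had 0 UMIs in the baso/mast-like class. The chymase gene Cma1 had 32 UMIs in 7 of its cells. Both tryptase genes were also at 0 CPM over all cells in every genotype, so that their absence does not set the class apart. Slc18a2, the transporter that loads histamine into granules, was found in 45.4% of the baso/mast-like cells, and Il1rl1, the interleukin 33 receptor, in 36.2%.

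The share of a gene's UMIs that lay in this class ranged widely. Prss34 had 91.1% of its UMIs there, Mcpt8 61.5%, Fcer1a 60.6%, Ms4a2 53.5%, Cyp11a1 41.9% and Cpa3 30.5%, and Hdc had 4.40%. These shares are of the UMIs pooled over the 12 libraries, so that libraries with many UMIs of a gene weigh most. By library the share ran from 4.89% (G12D/E2-KO T3) to 77.7% (WT T1) for Mcpt8 and from 73.7% to 96.7% for Prss34. Hdc lay instead in the granulocyte-macrophage progenitor and early granulocyte class (GMP/early GN-like, 41.1% of its UMIs) and in late granulocytes (late GN-like, 36.9%). Cpa3 had its greatest share, 41.6%, in a cluster led by Cd34, Ccl9 and Ikzf2. It was left unnamed. In it 7 markers of the list for stem and multipotent progenitor cells were raised, but its 10 leading genes held 1 gene of that list (Cd34) and 2 of the baso/mast list (Ikzf2 and Ifitm1). That cluster held 2012 cells, and 29.9% of them had a Cpa3 UMI and 27.0% an Mcpt8 UMI, against 1.24% with a Prss34 UMI. Ms4a2 and Fcer1a also had 9.38% and 16.6% of their UMIs in megakaryocyte-like cells (Meg-like), where 7.35% and 7.69% of the 1170 cells had a UMI of each. The Cd34 cluster held 12.8% of the Ms4a2 and 11.1% of the Fcer1a UMIs. The unnamed Csrp3 cluster held 7.16% and 3.37% of them in 701 cells.

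**Figure D3:**
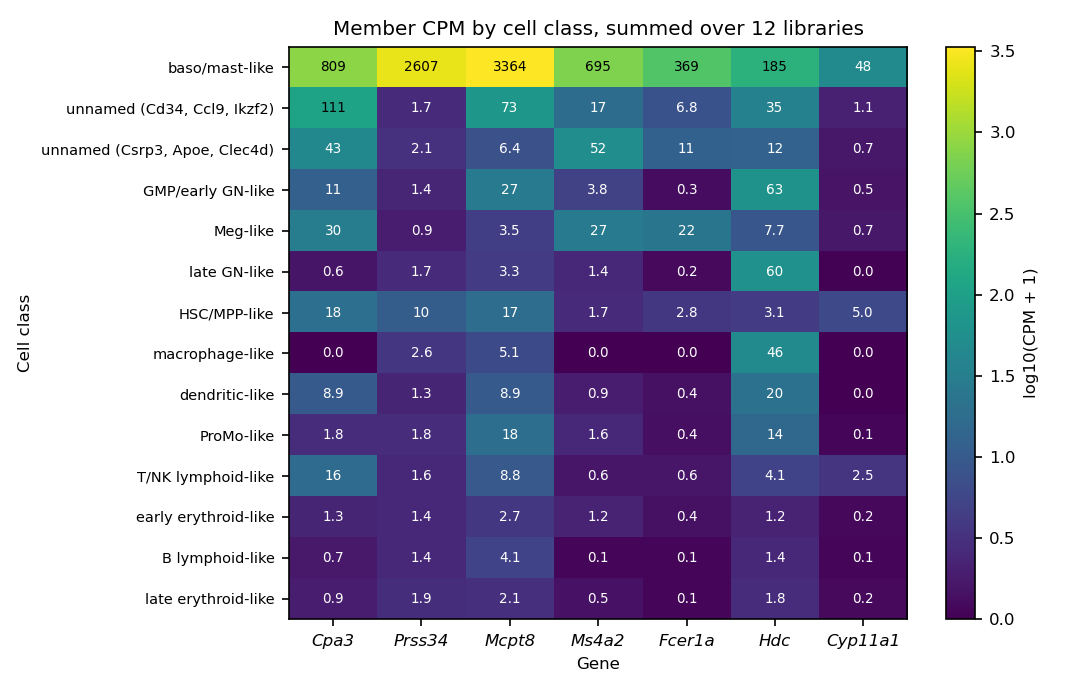
CPM of each gene in each cell class, summed over the 12 libraries (printed in the cells of the map, with color on a log10(CPM + 1) scale). The baso/mast-like row is the highest for all 7 genes, at 809 CPM for Cpa3, 2607 for Prss34 and 3364 for Mcpt8, and Hdc is also at 62.5 CPM in GMP/early GN-like and 59.7 CPM in late GN-like cells.

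Outside the baso/mast-like class, Cyp11a1 was seen mainly in G12D. In stem cell and multipotent progenitor cells (HSC/MPP-like) of G12D, 19 of 261 cells (7.28%, exact 95% binomial interval 4.44 to 11.1%) had a Cyp11a1 UMI, with 3 to 9 UMIs in each of the 3 libraries. In WT 0 of 299 such cells had one, for which the exact interval reaches 1.23% (3 counts of the total would be 1.0%), and E2-KO had 1 of 222 and G12D/E2-KO 7 of 377 (1.86%, 0.750 to 3.79%). In GMP/early GN-like cells G12D was again the highest, with 15 of 1402 cells (1.07%, 0.60 to 1.76%), against 3 of 1482 in E2-KO (0.202%), 1 of 902 in WT (0.111%, 0.00281 to 0.616%) and 2 of 2096 in G12D/E2-KO (0.0954%). The G12D share in HSC/MPP-like cells was also above that in G12D late GN-like cells, 1 of 2704 (0.0370%). These intervals cover counting error only, and no test across genes was made on these counts.

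Single cells rarely held several of the 7 genes. No UMI of any of them was found in 24821 cells, UMIs of 1 gene in 6239, of 2 in 1129, of 3 in 277, of 4 in 88, of 5 in 66, of 6 in 61 and of all 7 in 20. The 1129 cells with exactly 2 most often held Mcpt8 with Hdc (455 cells, 40.3%), then Cpa3 with Hdc (183) and Cpa3 with Mcpt8 (165). Of the 367 cells with an Fcer1a UMI, 59.9% also had Cpa3 and 55.3% had Ms4a2, where 4.78% and 2.48% of all cells had these. Of the 443 cells with Prss34, 37.5% had Hdc, 35.2% Mcpt8, 33.9% Cpa3 and 33.4% Ms4a2, where 14.99% of all cells had Hdc and 6.97% Mcpt8. Deeper cells have more chances of a UMI of each gene, so these shares depend on the UMIs per cell.

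In all, 1641 cells (5.02%) had UMIs of at least 2 of the 7 genes. In WT the share was 3.06% at T1 (72 of 2350 cells), 5.17% at T2 (147 of 2844) and 3.06% at T3 (73 of 2389). In E2-KO it was 5.40%, 4.45% and 2.20%, in G12D 6.21%, 4.48% and 5.49%, and in G12D/E2-KO 5.88%, 4.22% and 10.4%. Only G12D/E2-KO T3 stood apart, with 272 of 2617 cells (exact 95% binomial interval 9.25 to 11.6%), and its interval lay above those of the other 11 libraries. Of the 272, 94 were GMP/early GN-like, 88 in the Cd34 cluster, 33 Meg-like and 29 baso/mast-like. GMP/early GN-like, Cd34 cluster and Meg-like cells made up 32.0%, 10.9% and 11.5% of this library, against means of 11.7%, 4.66% and 3.64% in WT. Their part in the higher share was not tested. Nor was that of the Xist level, which among the T3 libraries was low in this library only.

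The genotype means were 3.76 ± 1.22% for WT, 4.02 ± 1.64% for E2-KO, 5.39 ± 0.872% for G12D and 6.83 ± 3.19% for G12D/E2-KO (SD, n = 3), and none of 6 tests on the shares passed. Carrying G12D went with a mean log2 ratio of 0.66 (in 4 of 6 pairs of libraries of 1 time point it was higher, exact two-sided sign-flip permutation p = 0.188, adjusted p = 0.797 over the 6 tests). Loss of EZH2 went with 0.15 (higher in 2 of 6 pairs, exact p = 0.531, adjusted p = 0.797). Each mutant against WT has 3 pairs, for which the smallest exact p is 0.25, and G12D/E2-KO against WT had a log2 ratio of 0.80 (higher in 2 of 3, exact permutation p = 0.5).

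Depth differed between libraries and between cells, as the median gated cell had 5433 to 10360 UMIs and the median other cell 3770 to 6788. With every cell thinned to 3000 UMIs and shallower cells left out (152 to 990 per library), the means were 1.29 ± 0.306% for WT, 1.80 ± 0.285% for E2-KO, 2.19 ± 0.882% for G12D and 3.74 ± 1.80% for G12D/E2-KO. Loss of EZH2 then went with a log2 ratio of 0.63 (6 of 6 pairs above 0, exact permutation p = 0.03125, the smallest 6 pairs can give, adjusted p = 0.1875), and G12D with 0.83 (5 of 6 pairs above 0, exact p = 0.0625, adjusted p = 0.1875). Thinned to 1400 UMIs, which every cell reached, loss of EZH2 went with 0.85 and G12D with 0.80, with the same exact p-values and numbers of pairs. G12D/E2-KO against WT had a log2 ratio of 1.47 thinned to 3000 UMIs and 1.65 thinned to 1400, above 0 in 3 of 3 pairs each time (exact permutation p = 0.25, the smallest 3 pairs can give). Among cells of other lineages, the unthinned share was 3 of 2882 late erythroid-like cells (0.104%) and 3 of 1820 B lymphoid-like cells (0.165%). It was higher in early erythroid-like cells, which are deeper (21 of 4592, 0.457%), in T/NK lymphoid-like cells (4 of 694, 0.576%) and in dendritic-like cells (12 of 450, 2.67%). In G12D/E2-KO T3 it was 7 of 295 early erythroid-like cells (2.37%).

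**Figure D4:**
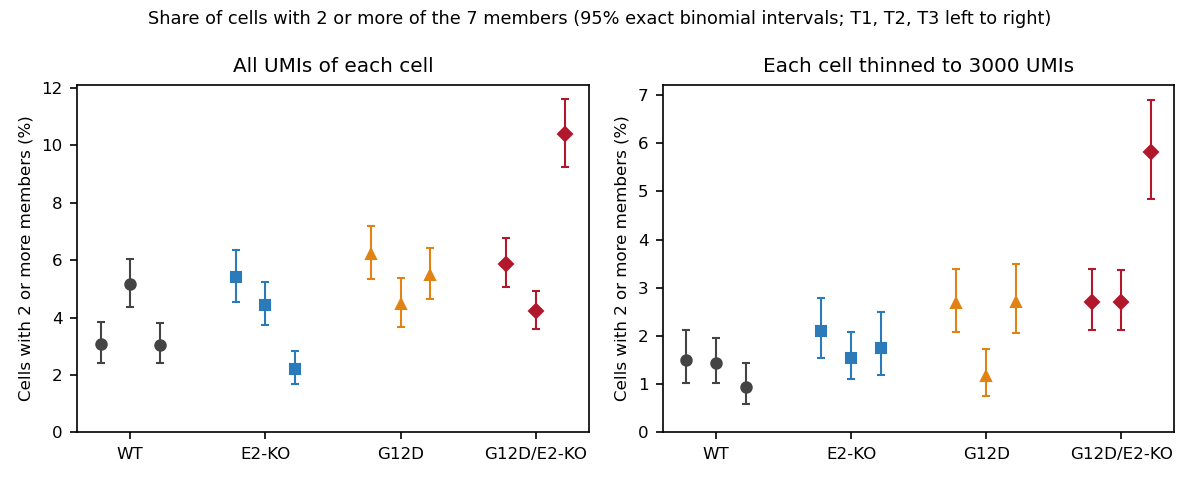
Percent of cells with UMIs of 2 or more of the 7 genes per library (y axis, from 0) with exact 95% binomial intervals, with all UMIs (left) and with each cell thinned to 3000 UMIs (right). G12D/E2-KO T3 is the highest library at 10.4%, and the other 11 lie between 2.20% and 6.21% with all UMIs.

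Most of the 1641 cells were not baso/mast-like. They fell into the GMP/early GN-like class (588 cells), the unnamed Cd34 cluster (422), the baso/mast-like class (274 of its 304 cells), ProMo-like cells, that is promonocytes (90), late GN-like cells (87), Meg-like cells (79) and smaller classes. The gate took 9.27% of Meg-like cells in G12D/E2-KO, 7.59% in G12D, 4.68% in WT and 3.08% in E2-KO (47, 12, 13 and 7 cells, pooled over libraries). In G12D 8 of the 12 cells were in T1 (14.8% there, 4.48% at T2 and 2.70% at T3). Pooled over libraries, the gate took 18.2 to 22.6% of the Cd34 cluster in each genotype. By library this share ran from 7.09% (E2-KO T3) to 30.9% (G12D/E2-KO T3, 88 of 285 cells). Of the unnamed Csrp3 cluster the gate took 9.88% in G12D/E2-KO, 4.65% in E2-KO, 4.00% in G12D and 2.65% in WT. The genes that set the gated WT cells (72, 147 and 73 cells at T1, T2 and T3) apart from the other WT cells by CPM, other than the 7 themselves, were led by Gm11697 (mean log2 ratio 3.96 over 3 WT libraries), Csrp3 (3.52), Rnase12 (3.15), 4930519L02Rik (3.06) and Ikzf2 (2.90), and the first 15 included Slc18a2 (2.65), Cebpa (2.25), Ifitm1 (2.15) and Gata2 (2.12). The 15 genes were picked by their ratio in WT, so that only the mutant libraries could have come out otherwise. All 15 were higher in the gated cells in each mutant library.

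To read a member's level in such cells without its own UMIs choosing them, each gene was read in the cells with at least 2 of the other 6. Cpa3 was at 194 ± 66.0 CPM (WT), 204 ± 124 (E2-KO), 194 ± 32.8 (G12D) and 207 ± 10.3 (G12D/E2-KO) there, with a log2 difference of 0.17 (SE 0.32) in G12D/E2-KO against WT. In the same order, Mcpt8 was at 690.5 ± 826, 721 ± 409, 1112 ± 295 and 636 ± 467 CPM. Fcer1a was at 7.04, 14.3 and 67.2 CPM in the WT libraries, at 82.8, 30.2 and 169 in E2-KO, at 51.2, 35.8 and 111 in G12D, and at 55.8, 28.8 and 68.6 in G12D/E2-KO. At each time point each mutant was above WT for Fcer1a. Of the cells read for Fcer1a, baso/mast-like cells made up 16.0 ± 4.29% in WT and 21.4 ± 15.2% in E2-KO. They made up 16.1 ± 5.64% in G12D and 19.6 ± 7.72% in G12D/E2-KO, and the part of this make-up in the levels was not tested.

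By edgeR, 0 of the 7 genes were called in these cells in any mutant against WT (under an unadjusted p of 0.05 there were 1 for E2-KO, 2 for G12D and 0 for G12D/E2-KO), and the share of all genes called was 0.047 to 0.492% over the 7 choices of cells. In the cells chosen without Fcer1a, 593, 349 and 699 of 8174 genes had an unadjusted p under 0.05, in the same order. In E2-KO, where 0.245% of genes were called in the cells chosen without Fcer1a, Fcer1a had a log2 change of 1.62 (SE 0.40, adjusted p = 0.211), which DESeq2 called (1.71, adjusted p = 0.00694; 0.257% of genes called). Against WT, Fcer1a had 1.27 in G12D (SE 0.40, adjusted p = 0.883; 0.0856% of genes called) and 0.87 in G12D/E2-KO (adjusted p = 0.589; 0.453%).

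Other genes did change within the 1641 cells, where 8331 genes were tested. E2-KO had 20 called genes (0.24%), among them Dsp, which encodes the cell junction protein desmoplakin (log2 change 3.70, SE 0.61, adjusted p = 0.00260), and Bex4 (3.29), which rose, and Retnlg (-3.60) and Ly6g (-3.24), genes of late neutrophils, which fell. The share of late GN-like cells among gated cells was 5.73 ± 2.02% in WT and 1.34 ± 0.517% in E2-KO, and their part in this fall was not tested. Ezh2 itself fell by 2.17 on the log2 scale (SE 0.24). G12D had 7 called genes (0.084%), with Tpm3-rs7 (3.48), Pttg1 (2.01, adjusted p = 7.307e-06) and Cap1 (1.78) higher and Ide (-1.31) lower. G12D/E2-KO had 41 (0.492%), with Bex2 (3.70), Dsp (3.46), Bex4 (2.76), Hmga2 (2.69) and the BMP receptor gene Bmpr1a (2.68) higher and Gm2a (-2.10), Nod1 (-1.98), Ezh2 (-1.81) and Vcam1 (-1.38) lower. Xist was also called in G12D/E2-KO (-11.29), and it was high in 1 of the 3 WT libraries and in none of the 3 G12D/E2-KO libraries. Several of the called genes changed about as much over all cells and are not particular to the gated cells. Over all cells the log2 change was 4.41 for Dsp in E2-KO. In G12D it was 3.54 for Tpm3-rs7, 2.02 for Pttg1 and 1.85 for Cap1, and in G12D/E2-KO 3.30 for Bex2, 2.52 for Hmga2 and 2.97 for Bmpr1a. Bex4 (0.30), Gm2a (-0.41), Nod1 (-0.72) and Vcam1 (-0.25) changed less over all cells in G12D/E2-KO.

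The baso/mast-like class itself made up 0.511, 0.738 and 0.712% of cells in WT, 0.90, 0.611 and 0.967% in E2-KO, 0.908, 0.539 and 1.25% in G12D, and 1.31, 1.25 and 1.22% in G12D/E2-KO. The 3 G12D/E2-KO libraries were above all WT and E2-KO libraries, at 1.26 ± 0.0472% against 0.654 ± 0.124% in WT. They held 119 of the 304 cells, and the log2 ratio to WT was 0.97 (higher in 3 of 3 pairs, exact permutation p = 0.25, the smallest that 3 pairs can give). G12D went with 0.52 (5 of 6 pairs, exact p = 0.09375, adjusted p = 0.375) and loss of EZH2 with 0.45 (4 of 6 pairs, exact p = 0.125, adjusted p = 0.375). The share of cells depends on the c-Kit enrichment, since these are shares of the enriched cells.

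Within this class Mcpt8 and Prss34 spread over a wider range of levels than Cpa3 and Ms4a2. Mcpt8 was at 8681, 1752 and 221 CPM at T1, T2 and T3 in WT, at 6940, 1382 and 1458 in E2-KO, at 7773, 4665 and 3396 in G12D, and at 3866, 1967 and 179 in G12D/E2-KO. Prss34 was at 6991, 1596 and 326 CPM in WT, at 5504, 950.3 and 1404 in E2-KO, at 5866, 3589 and 1701 in G12D, and at 3121, 1540 and 458 in G12D/E2-KO. In each genotype T1 was the highest time point for both proteases, but WT T1 had 12 cells in the class, and 1 of them held 75.2% of its Mcpt8 and 69.8% of its Prss34 UMIs. Without that cell Mcpt8 was at 2359 CPM and Prss34 at 2311 CPM there, and with the richest cell of each library left out T1 was still the highest in 4 of 4 genotypes for both. The summed level of the 7 genes in the class (mean of 3 libraries) depended on such cells: without the richest 1% of the cells of the class, which is 1 cell a library, it went from 8187 to 3348 CPM in WT, from 8017 to 6231 in E2-KO, from 11592 to 8261 in G12D and from 5636 to 5024 in G12D/E2-KO, so that WT became the lowest genotype. Ms4a2 was at 379 to 941 CPM over the 12 libraries and Cpa3 at 410.4 to 1378 CPM, with no common order over time.

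Pooled over the genotypes, cells with 10 or more UMIs of Mcpt8 or Prss34 numbered 50 of the 99 baso/mast-like cells at T1 (50.5%), 21 of 99 at T2 (21.2%) and 23 of 106 at T3 (21.7%). G12D/E2-KO T1 gave 25 of the 50. By library the share was 25 to 62.5% at T1, 19.0 to 30.8% at T2 and 5.88 to 37.5% at T3. In WT it was 3 of 12 cells at T1 and 4 of 21 at T2. The cells with 10 or more UMIs held 87.3 to 98.7% of the Mcpt8 UMIs of the class in every library except WT T3 (33.3%) and G12D/E2-KO T3 (32%), where no cell of the class had 10 UMIs of Mcpt8. In these 2 libraries the class held 11.8% and 4.89% of all Mcpt8 UMIs of the library. Of the 94 cells with 10 or more UMIs of either protease over all libraries, 4 also had 10 or more UMIs of the eosinophil granule gene Prg2. The summed level of the 6 eosinophil markers in the class was 0 to 152 CPM in 9 of the 12 libraries and was 8878 CPM in G12D T1, 1512 in E2-KO T2 and 758 in G12D/E2-KO T3.

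In the edgeR fit of the class, 6 of the 7 genes passed the filter on low counts (Cyp11a1 did not) among 1931 genes tested, and 0 of the 6 were called against WT, in the interaction or over time (2 to 3 had an unadjusted p under 0.05 in each; T2 against T1 had 0.414% of genes called). At T3 against T1, where 0.673% of genes were called, Prss34 had a log2 change of -2.57 (SE 0.57, adjusted p = 0.139) and Mcpt8 of -2.87 (SE 0.81, adjusted p = 0.264), and DESeq2 called both (adjusted p = 0.000477 and 0.00789; 0.673% of genes called). Ms4a2 had 0.0044 (SE 0.19) and Cpa3 -0.38 (SE 0.20) in the same comparison. Against WT, in the interaction and over time, 88 to 204 of the 1931 genes had an unadjusted edgeR p under 0.05.

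Fcer1a in the class was at 58.3, 141 and 379 CPM in WT, at 812, 248 and 457 in E2-KO, at 469, 427 and 673 in G12D, and at 335, 125 and 315 in G12D/E2-KO. Both single mutants were above WT at each time point, and G12D/E2-KO was above WT at T1 only. The log2 changes against WT were 1.36 in E2-KO (SE 0.41, adjusted p = 0.237; 0.466% of genes called), 1.42 in G12D (SE 0.40, adjusted p = 0.525; 0.104%) and 0.36 in G12D/E2-KO (SE 0.41, adjusted p = 0.872; 0.88%). The interaction was -2.42 (SE 0.54, adjusted p = 0.222; 0.155% of genes called), and DESeq2 called it (-2.51, adjusted p = 0.0195; 0.155% of genes called). Hdc, at 94.7 to 227 CPM in the class, differed from WT by 0.43 (E2-KO), 0.61 (G12D) and 0.77 (G12D/E2-KO), with adjusted p of 0.713, 0.842 and 0.393.

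**Figure D5:**
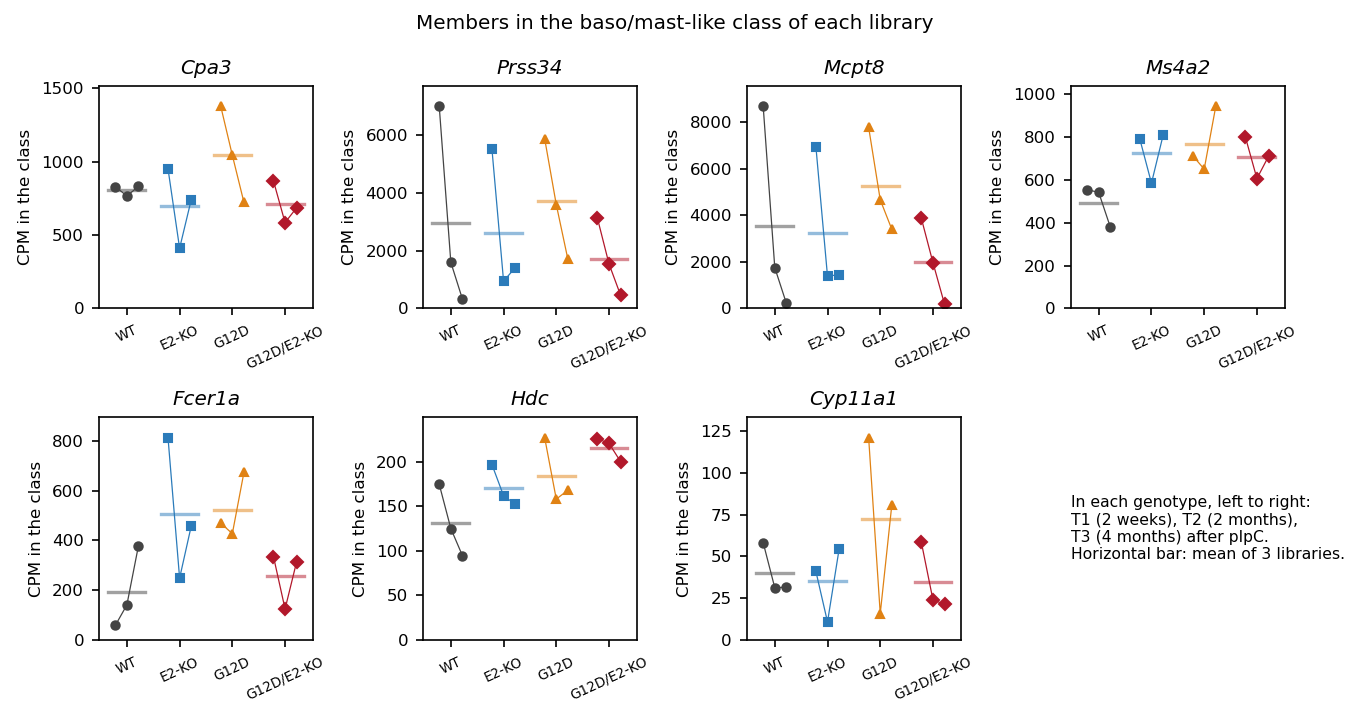
CPM of each gene within the baso/mast-like class (y axis, linear, from 0) by genotype, with 1 point per library at T1, T2 and T3 from left to right and a bar at the mean of 3 libraries, which rest on 12 to 47 cells each. Mcpt8 and Prss34 are highest at T1 in each genotype, and Fcer1a is lowest in WT T1 (58.3 CPM) and highest in E2-KO T1 (812 CPM).

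In Meg-like cells, Ms4a2 was at 23.5, 14.7 and 7.51 CPM in WT and at 63.5, 21.8 and 41.9 in G12D/E2-KO, with a log2 change of 1.61 (SE 0.47, adjusted p = 0.199; 0.687% of 5680 genes called), and Cpa3 was at 21.6, 25.7 and 13.8 against 32.9, 40.7 and 38.2 CPM, with 1.0 (SE 0.33, adjusted p = 0.248). All 3 G12D/E2-KO values of Cpa3 were above the 3 WT values, and those of Ms4a2 overlapped with WT. These cells numbered 507 in G12D/E2-KO, 278 in WT, 227 in E2-KO and 158 in G12D. In GMP/early GN-like cells Cpa3 was at 15.3 ± 5.62 CPM in G12D/E2-KO and 8.68 ± 2.10 CPM in WT (0.80, SE 0.27, adjusted p = 0.126; 2.31% of 10115 genes called). Of the 7 genes, 2 passed the filter in Meg-like cells and 4 in GMP/early GN-like cells, where 3 were above 0 and 1 below (-0.39). In the Cd34 cluster 5 passed it, 3 above 0 and 2 below, with a median log2 change of 0.09. There 0 had an unadjusted edgeR p under 0.05.

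Lists of 79 related genes, with 6 eosinophil markers and genes of wider use among them, were read from the fit over all cells, in which 60 passed the filter. That fit takes in every cell of a library, so that a change need not lie in baso/mast-like cells. In G12D/E2-KO 4 of the 60 rose and 1 fell, where 3.73% of all genes rose and 5.69% were called, at a median log2 change of 0.41 against 0.01 for all genes. DESeq2 called 15 of the 60 in this comparison and 10.2% of all genes. Ptgs1, the cyclooxygenase of prostaglandin synthesis, was at 33.4 ± 3.36 CPM, against 17.9 ± 1.88 CPM in WT, and rose by 0.84 (SE 0.15, adjusted p = 0.0133). In the gated cells Ptgs1 was at 25.5 ± 3.04 against 17.4 ± 4.36 CPM, no higher in WT than over all cells. Gab2, an adaptor of IgE receptor signalling, was at 6.05 ± 1.39 CPM against 3.22 ± 0.403 CPM and rose by 0.83 (SE 0.19, adjusted p = 0.0358; 0.0534 with no replicate block). The transcription factor gene Ikzf2, at 26.2 ± 5.74 against 15.6 ± 3.61 CPM, rose by 0.70 (SE 0.18, adjusted p = 0.0455; 0.114 with no replicate block and 0.0564 in the tables as deposited, so that this call is lost in both). The Cd34 cluster, of which Ikzf2 is a leading gene, held 4.66 ± 0.187% of cells in WT and 7.99 ± 2.92% in G12D/E2-KO. In the gated cells Ikzf2 was at 98.8 ± 42.0 and 114 ± 22.1 CPM, and the part of this cluster in the rise was not tested. Fdx1, ferredoxin 1, which hands electrons to the enzyme CYP11A1, rose by 0.52 (SE 0.11, adjusted p = 0.0241). Gata1 was at 34.1 ± 1.17 CPM against 68.2 ± 6.31 CPM and fell by 1.06 on the log2 scale (SE 0.26, adjusted p = 0.0440; 0.0522 in the tables as deposited). Early erythroid-like cells, which use Gata1, were 18.1 ± 2.84% of cells in WT and 9.91 ± 3.06% in G12D/E2-KO, and in the gated cells Gata1 was at 22.4 ± 11.9 and 19.3 ± 3.09 CPM. The part of these cells in the fall was not tested.

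By list, 1 of 13 genes of IgE receptor signalling rose in G12D/E2-KO (Gab2), 1 of 8 of mediator synthesis and storage (Ptgs1), 1 of 5 of steroid synthesis (Fdx1) and 1 of 13 transcription factors (Ikzf2), with 0 of 5 other granule protease and matrix genes, 0 of 12 cytokines and receptors and 0 of 4 eosinophil markers. Of all genes tested, 3.73% rose in G12D/E2-KO. In E2-KO, where 1.59% of all genes were called, only Fdx1 passed (0.81, SE 0.11, adjusted p = 0.00367, at 74.7 ± 11 CPM), at a list median of -0.0013. In G12D (0.109% of all genes) 0 of the 60 were called, at a list median of 0.19, and DESeq2 called 1 (1.11% of all genes). Against G12D (1.36% of all genes), G12D/E2-KO had higher Fyn, a kinase of the IgE receptor pathway (1.26, SE 0.22, adjusted p = 0.0172), and Ptgs1 (0.71, SE 0.15, adjusted p = 0.0407). Fyn was at 7.19 ± 2.03 CPM in gated WT cells and at 6.53 ± 1.56 CPM over all WT cells.

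Of 12841 genes, those whose log2 CPM over the 12 libraries was most like that of the summed 7 genes were Rmi2 (Pearson r = 0.901), 4930570N18Rik (0.888), Sh2b3 (0.883), Igsf8 (0.882) and Arhgap15 (0.877). These values describe 12 libraries that share genotypes and time points.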

How the data were processed

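The deposited tables hold counts: whole UMIs per gene and cell, made by the authors with Cell Ranger on mm10 (per the labels), each sample separately. Per the study's methods, cells over 10% mitochondrial UMIs and doublets marked by Scrublet were removed before deposit. The counts carry no barcodes, so cells held by more than 1 library were found by similarity over genes (limit 0.9): 2896 cells matched between G12D T1 and G12D/E2-KO T1, and no other pair of libraries passed 0.852.

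UMIs were summed per library and tested with edgeR 4.0.16 (TMM, filterByExpr, quasi-likelihood with robust fit, genotype and time point as terms), with DESeq2 1.42.0 as the alternative. On simulated counts with 100 genes changed at each size, 78% at a log2 change of 1 and 97% at 2 were recovered over all cells (12683 genes), and 62% and 92% in cells with 2 or more of the 7 genes (8114 genes). Every simulated gene had the same spread and no time effect, and only genes with enough UMIs were changed. Recovery was therefore not measured at the spread of genes such as Prss34 (SE 0.72 over all cells in E2-KO against WT). Shares were tested by exact sign-flip permutation over libraries of the same time point. Classes came from Leiden clusters (scanpy 1.11.5, resolution 2, 1992 variable genes, the 7 genes left out) of WT cells, and mutant cells took the class of the nearest WT cell. A cluster was named after the best scoring marker list where at least 3 of its markers and a share of 0.5 of the list were raised, its score led the next list by 0.25 (related lists excepted), and no unrelated list had more genes among the 10 leading ones; 3 of 30 clusters stayed unnamed. No doublet caller was run here. The UMI counts limit the precision, and intervals cover counting error only.

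The same number in the labels marks the same time point. The cell names inside the tables number every time point 1 lower than the labels do, in the same order, and the labels were used. Deviations of same-numbered libraries correlated at -0.21 to 0.47 (median 0.08, 18 pairs), against a median of -0.05 across numbers, and the main fit has the time point as a term. The genes named are the 7 members in every comparison, the related genes past the threshold, the 5 most correlated genes, the 15 with the highest ratio in gated WT cells (9 are printed), and up to 5 in each direction per mutant in gated cells. The members and lists were chosen with earlier results of these data known. Promoters came from RefSeq, matched by symbol for all 7 genes.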

Additional observations from a re-analysis of the deposited data

How the results depend on the processing

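Over all cells edgeR called 0 of the 7 genes in each comparison. Against WT, DESeq2 called 1 (E2-KO), 3 (G12D) and 4 (G12D/E2-KO), 2 in G12D/E2-KO against E2-KO, and 1 each at T2 and T3 against T1. In G12D/E2-KO, 1 was called with no replicate block (Cpa3, 1.13, adjusted p = 0.0416) and 1 with hemoglobin and late granulocyte genes left out (Cpa3, 1.14, adjusted p = 0.0493), and 0 to 2 with each library left out (Ms4a2 without WT T2 or G12D T2, Mcpt8 and Ms4a2 without G12D T3, Cpa3 without G12D/E2-KO T1). The cause was not tested. No share of all genes called is set beside the counts with a setting or library changed, so they describe the calls only. Leaving out a library turned the sign for Cpa3 (-0.15 to 0.31) and Ms4a2 (-0.14 to 0.94) in E2-KO, Ms4a2 in G12D (-0.088 to 0.97) and Hdc in G12D/E2-KO (-0.10 to 0.42).

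In cells with 2 or more of the other 6, DESeq2 called 1 member in E2-KO (Fcer1a, with 0.257% of genes called). The fit with no filter on low counts called 1 in E2-KO, 1 in G12D, 1 in the interaction, 2 at T2 and 1 at T3. Leaving out a library gave 0 to 1 called members, the 1 without G12D/E2-KO T3 (E2-KO, G12D, G12D/E2-KO and T3). More gated genes of any kind were called in E2-KO with no filter (73 in place of 20) and without G12D/E2-KO T3 (41). These member counts therefore describe the calls only. Called genes in the gated cells in E2-KO (20) were 73 with no filter, 12 with no replicate block, 9 in the tables as deposited and 8 with 3 or more members, and 3 to 41 with each library left out (3 without WT T2, 6 without E2-KO T1, 11 without WT T1, 12 without E2-KO T2, 41 without G12D/E2-KO T3). In G12D (7) they were 11 with DESeq2, 44 with no filter, 3 with no replicate block, 4 as deposited and 3 with 3 or more members, and 3 to 17 with each library left out (3 without WT T2 or G12D T1, 4 without WT T1, 17 without G12D/E2-KO T3). In G12D/E2-KO (41) they were 96 with no filter, 23 with no replicate block and 15 with 3 or more members, and 13 to 55 with each library left out (13 without WT T2, 23 without WT T3).

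Among related genes DESeq2 called 3 (E2-KO, where it called 3.53% of all genes), 1 (G12D, 1.11%) and 15 (G12D/E2-KO, 10.2%), and the tables as deposited gave 3 in G12D/E2-KO. Gab2 (adjusted p = 0.0534) and Ikzf2 (0.114) were lost with no replicate block, and Gata1 (0.0522) and Ikzf2 (0.0564) in the tables as deposited. The block changed no other call of a related gene against WT.

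For the shares, the log2 ratio of E2-KO to WT turned to -0.081 without the baso/mast-like cells, and the interaction (0.21) to -0.10 with Cpa3 not counted. With each library left out, the EZH2 effect ranged from -0.0070 to 0.27, E2-KO against WT from -0.34 to 0.30 and the interaction from -0.38 to 0.76. The summed level of the 7 genes in GMP/early GN-like cells of G12D was 117 CPM at Leiden resolution 1. In GMP/early GN-like cells, without the 1% of cells with most UMIs of the 7 genes, it was 97.7 CPM in G12D and 99.5 CPM in WT, and in the baso/mast-like class it was 3348 CPM in place of 8187 CPM in WT. Resolution 1 formed no baso/mast-like class, so no value was had for it. Reading other classes, leaving the baso/mast-like cells out, leaving out the richest cell of each library and the share of that class were added after seeing the data. Depth limits Cyp11a1 and Fcer1a most, with as few as 4 UMIs in a library.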
